A study of Mus musculus with 18 samples.

Results

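The genes described here are 42 genes of DNA replication: the subunits that recognise and license origins, the replicative helicase, the polymerases with their clamp and clamp loader, the factors that join the lagging strand, the enzymes that make deoxynucleotides, and the factors that restore chromatin behind the fork. They were chosen by gene symbol, and 1 probe stood for each gene, the one with values on most arrays. Of the 42, 40 had a probe and all 40 were tested, among 18525 features. Mcm7 and Uhrf1 had no probe named here. They were followed along the rostrocaudal axis of the embryonic neocortex. RNA came from 4 MF1 mouse embryos at E13.5, divided into 3 rostral, 3 middle and 3 caudal pools, and the labels give no mutation, transgene or treatment for any pool. Pairs of pools from different regions were hybridised on 18 arrays with 2 dyes. A pool was measured 4 times, with both dyes used equally often, and a pair of regions met on 6 arrays. The embryos behind each pool are not named in the labels, so a p-value here reflects the spread from pool to pool, part or all of which may be technical.

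Eukaryotic origins are marked by the origin recognition complex, which with Cdc6 and Cdt1 loads the ring of MCM proteins onto DNA in G1. At the start of S phase Cdc45 and the GINS complex join the ring and turn it into a working helicase, primase and the polymerases copy both strands, and PCNA, loaded by replication factor C, holds the polymerases on the template. In the embryonic cortex at this age the dividing cells are radial glia of the ventricular zone and intermediate progenitors, while the neurons that collect above them have left the cycle. Many replication genes are transcribed at the G1 to S transition under E2F transcription factors.

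Promoters of 36 of the 42 genes were found in RefSeq's sequences (build GRCm38.p6), each a window of 300 bases that runs from 250 before to 50 after an annotated start. An E2F-type motif of 8 letters (TTTCCCGC, TTTCGCGC, TTTGCCGC or TTTGGCGC, on either strand) was found in a window of 14 of the 36 genes (38.9%), against 704 of the 27025 genes of the whole table (2.6%). Promoters are shown for Mcm3, Mcm5 and Rrm2, which had higher values in rostral than in caudal pools, and for Mcm6, a subunit of the same ring as Mcm3 and Mcm5, which did not. Capitals mark the motif, and in Mcm5 and Mcm6 a motif on each strand overlaps the other, so that the 2 read as a single run of capitals. Sequences are written 5′ to 3′ on the strand of the gene.
Mcm3 (chr1:20820263-20820562, minus strand): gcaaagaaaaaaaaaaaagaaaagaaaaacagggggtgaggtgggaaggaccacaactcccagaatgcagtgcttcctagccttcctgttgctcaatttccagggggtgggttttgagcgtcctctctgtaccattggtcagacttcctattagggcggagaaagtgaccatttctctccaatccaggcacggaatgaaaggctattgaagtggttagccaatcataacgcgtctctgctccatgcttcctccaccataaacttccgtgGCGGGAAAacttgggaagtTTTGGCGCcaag
Mcm5 (chr8:75109259-75109558, plus strand): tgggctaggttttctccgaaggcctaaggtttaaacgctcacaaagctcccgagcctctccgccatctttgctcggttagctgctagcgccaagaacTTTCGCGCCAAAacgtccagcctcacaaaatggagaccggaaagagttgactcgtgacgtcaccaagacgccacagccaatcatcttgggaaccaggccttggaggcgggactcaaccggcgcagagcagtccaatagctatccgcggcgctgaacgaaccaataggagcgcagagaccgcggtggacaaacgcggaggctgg
Mcm6 (chr1:128359656-128359955, minus strand): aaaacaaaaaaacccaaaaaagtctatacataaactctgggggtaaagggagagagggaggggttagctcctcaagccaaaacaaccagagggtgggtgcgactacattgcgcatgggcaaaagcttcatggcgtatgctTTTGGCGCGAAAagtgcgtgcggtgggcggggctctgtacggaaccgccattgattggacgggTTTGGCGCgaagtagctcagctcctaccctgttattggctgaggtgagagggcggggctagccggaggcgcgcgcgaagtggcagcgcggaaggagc
Rrm2 (chr12:24708004-24708303, plus strand): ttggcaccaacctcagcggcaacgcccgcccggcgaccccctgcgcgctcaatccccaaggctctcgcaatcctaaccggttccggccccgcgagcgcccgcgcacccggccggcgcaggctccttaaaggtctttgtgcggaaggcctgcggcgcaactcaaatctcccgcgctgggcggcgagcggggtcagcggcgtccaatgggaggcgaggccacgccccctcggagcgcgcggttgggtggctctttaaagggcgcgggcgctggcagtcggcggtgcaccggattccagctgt
The Mcm3 window holds 2 motifs, the Mcm5 window 2, the Mcm6 window 3 and the Rrm2 window 0. Of the 8 genes with a promoter that had higher rostral than caudal values at an unadjusted p under 0.05, 3 held the motif (37.5%), against 9 of the other 26 measured genes (34.6%). The CCAAT box, searched as CCAAT on either strand, was in 23 of the 36 genes (63.9%) and in 41.1% of all genes of the table. The windows of the 36 genes had a mean GC content of 59.8%, against 53.6% for all genes of the table, and neither motif comparison was matched for it. A match is a run of letters and was not tested for binding.

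Values are log2 ratios between pools, expressed for each gene as 9 pool values that sum to 0, so a value gives a pool's standing among the pools and not the level of the gene. For this reason the presence of the tissue's own markers could not be read as a level. Ratios were read as Cy5 over Cy3, a direction that is likely rather than stated. On this reading Nr2f1, a nuclear receptor gene known for high caudal expression, had -1.02 ± 0.069 for rostral against caudal (SE, n = 3 pools per region, limma adjusted p = 0.0138) and Etv1, an FGF-responsive gene known from rostral cortex, 0.795 ± 0.071 (limma adjusted p = 0.0272). Arrays held between 18315 and 20924 values, and their number limits the precision. The residual SD between arrays had a median of 0.26 over all features and of 0.11 over the replication genes, the latter from 0.056 for Gins1 to 1.487 for Rfc2. Pola1 had values on 17 arrays, Rfc2 on 16 and the other 38 genes on all 18.

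Rostral and caudal pools were compared first, to ask whether the replication genes differ between rostral and caudal neocortex. Mcm3, Mcm4 and Mcm5 of the replicative helicase, the ribonucleotide reductase subunit Rrm2, the flap endonuclease Fen1 and the histone chaperone subunit Chaf1b had higher values in rostral than in caudal pools, by 0.27 to 0.93 on the log2 scale. The origin recognition complex, Mcm2, Mcm6 and Pcna lay between -0.098 and 0.084 in the same comparison. Of the 40 genes, 27 were above 0 (67.5%, against 50.4% of all features) and 13 were below, with a median of 0.095 against 0.002. At an unadjusted p under 0.05 in limma's test, 12 genes were higher in rostral pools (4.17% of all features were) and 2 were higher in caudal pools (3.74%), in all 35.0% of the genes against 7.90% of features. After Benjamini-Hochberg adjustment over all features 0 of the 40 passed, where 12 features did (0.0648%). The lowest adjusted p was that of Rrm2 (limma adjusted p = 0.0619), followed by Mcm3 (limma adjusted p = 0.0815).

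These counts changed when a pool was left out, in fits that also had fewer arrays and pools. A fall is therefore not traced to the missing pool, and no share of all features stands beside these counts. The 12 became 6 without rostral replicate 1 and 7 without replicate 2 of any of the 3 regions. The 2 became 1 without rostral replicate 1, rostral replicate 2, caudal replicate 2 or caudal replicate 3. Without rostral replicate 3 the genes changed: the polymerase subunit gene Pold2 dropped out (limma unadjusted p = 0.125) and Mcm6 came in (-0.133, limma unadjusted p = 0.0374). Mcm3, Rrm2 and Chaf1b kept an unadjusted p under 0.05 in all 20 alternatives run. Without centring of the arrays the median of all features moved to -0.069, with 1.10% of features higher and 5.12% lower. The split of the replication genes was then 5 higher and 2 lower, while their median relative to all features was 0.097, against 0.093 with centring. A fit with arrays in place of pools as the unit counts the 18 arrays as independent, although each pool was measured on 4 of them. The split was then 20 higher and 3 lower, a count with no share of all features beside it. After adjustment 15 of the 40 genes passed in this fit, where 1325 of the 18525 features did. Among the 12571 features with values on all 18 arrays 46 passed, 2 of them replication genes, Mcm3 and Rrm2.

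**Figure D1:**
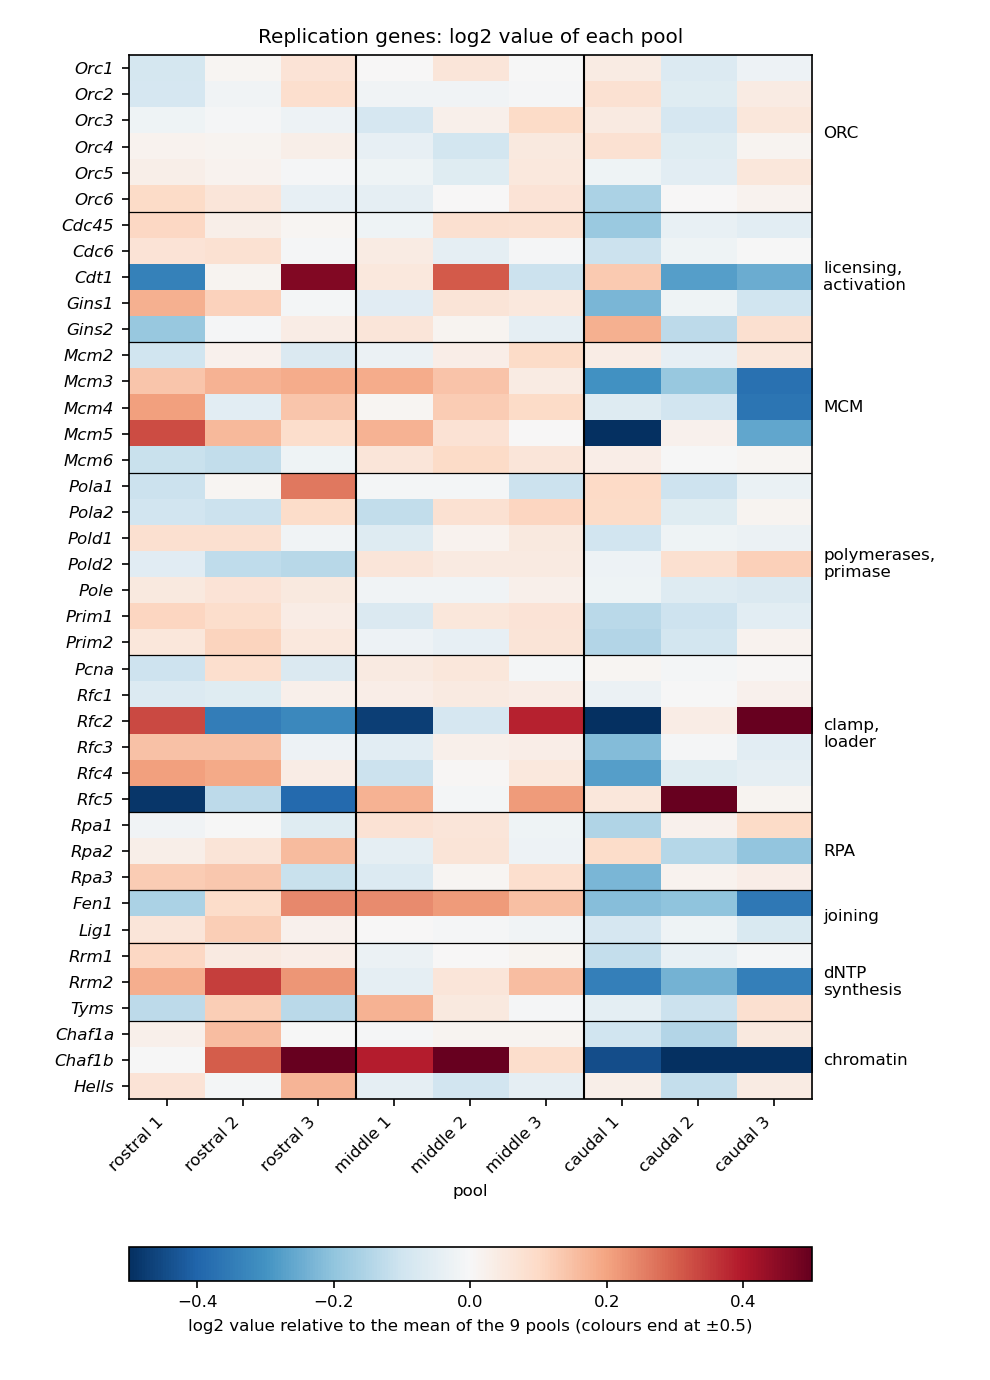
Log2 value of each of the 40 replication genes in the 9 pools, with 0 as the mean over pools, genes in rows by role and pools in columns by region; red is above the mean and blue below, and colours end at ±0.5. Mcm3, Rrm2, Fen1 and Chaf1b are blue in all 3 caudal pools, whereas Mcm2, Mcm6 and the origin recognition complex stay pale.

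The median of the 40 genes was 0.028, 0.052 and 0.026 in rostral replicates 1, 2 and 3, -0.017, 0.029 and 0.045 in the middle replicates and -0.074, -0.060 and 0.001 in the caudal replicates. The caudal medians lay below the rostral ones, and the middle medians overlapped both. RNA came from whole pieces of tissue, in which a smaller share of replicating cells and less replication mRNA per cell cannot be told apart. The 39 mitosis and G2/M genes of a separate list had pool medians of 0.036, 0.062 and 0.043 in rostral replicates 1, 2 and 3, -0.025, 0.023 and 0.019 in the middle replicates and -0.083, -0.068 and -0.005 in the caudal replicates, again lowest in caudal replicates 1 and 2. The 16 meningeal markers tested had medians of 0.028, -0.083 and -0.135 in rostral replicates 1, 2 and 3, 0.018, -0.051 and 0.004 in the middle replicates and 0.064, 0.064 and 0.13 in the caudal replicates. Those markers were all below 0 in rostral against caudal (0 above, 16 below, range -0.66 to -0.003), and 5 of them had an unadjusted p under 0.05, led by the prostaglandin synthase gene Ptgds (-0.66 ± 0.13). Of all features 50.4% were above 0, and 3.74% were lower in rostral pools at that threshold. The Gapdh control spots had medians of -0.090, -0.040 and -0.15 in rostral replicates 1, 2 and 3, 0.068, 0.086 and 0.078 in the middle replicates and -0.14, 0.033 and 0.15 in the caudal replicates. The part of meningeal tissue and of the pattern in the control spots in the values of the replication genes was not tested.

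By role, the MCM ring was divided. Its 6 subunits form a single heterohexamer, of which Mcm2 to Mcm6 were measured. Mcm3 had 0.14, 0.17 and 0.19 in rostral replicates 1, 2 and 3, 0.18, 0.14 and 0.041 in the middle replicates and -0.30, -0.19 and -0.37 in the caudal replicates. All caudal pools were below all 6 others, and the difference between the ends was 0.455 ± 0.065 (SE, n = 3 pools per region, 1.37-fold, limma unadjusted p = 0.000176). On the 6 arrays that carried a rostral against a caudal pool, Mcm3 had 0.30 to 0.53, higher in rostral on 6 of 6.

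Mcm5 had 0.33, 0.16 and 0.087 in rostral replicates 1, 2 and 3, 0.17, 0.071 and 0.001 in the middle replicates and -0.58, 0.021 and -0.26 in the caudal replicates. The rostral pools were above the caudal pools, but caudal replicate 2 stood far above the other caudal pools, close to middle replicate 3. The difference was 0.47 ± 0.15 (1.38-fold, limma unadjusted p = 0.0162), and the p moved to 0.0501 without rostral replicate 1. A second Mcm5 probe gave 0.27 ± 0.091 (limma unadjusted p = 0.0203), a smaller difference in the same direction.

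Mcm4 had 0.20, -0.053 and 0.14 in rostral replicates 1, 2 and 3, 0.009, 0.13 and 0.095 in the middle replicates and -0.063, -0.094 and -0.365 in the caudal replicates. Rostral and caudal pools did not overlap, though rostral replicate 2 and caudal replicate 1 differed by little, and caudal replicate 3 stood apart from the rest. The difference was 0.27 ± 0.10 (1.21-fold, limma unadjusted p = 0.0331). Without caudal replicate 3 the difference was 0.15. The p was above 0.05 with rostral replicate 3, middle replicate 1 or 2 or caudal replicate 2 or 3 left out (0.0521 to 0.133).

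Mcm2 and Mcm6, of the same ring, had values on the other side of 0. Mcm2 had -0.10, 0.023 and -0.074 in rostral replicates 1, 2 and 3, -0.030, 0.033 and 0.095 in the middle replicates and 0.038, -0.040 and 0.057 in the caudal replicates, with overlapping regions and a difference of -0.069 ± 0.060 (limma unadjusted p = 0.284). Mcm6 had -0.11, -0.12 and -0.023 in rostral replicates 1, 2 and 3, 0.060, 0.095 and 0.062 in the middle replicates and 0.033, -0.002 and 0.008 in the caudal replicates. Its 3 rostral pools were the lowest of the 9, and its middle pools the highest. The difference between the ends was -0.098 ± 0.047 (limma unadjusted p = 0.0761) and that between rostral and middle -0.16 ± 0.047 (limma unadjusted p = 0.0120). Without rostral replicate 3 the difference between the ends was -0.133 (limma unadjusted p = 0.0374). The differences of Mcm2 and Mcm6 from Mcm3, Mcm4 and Mcm5 were not tested.

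**Figure D2:**
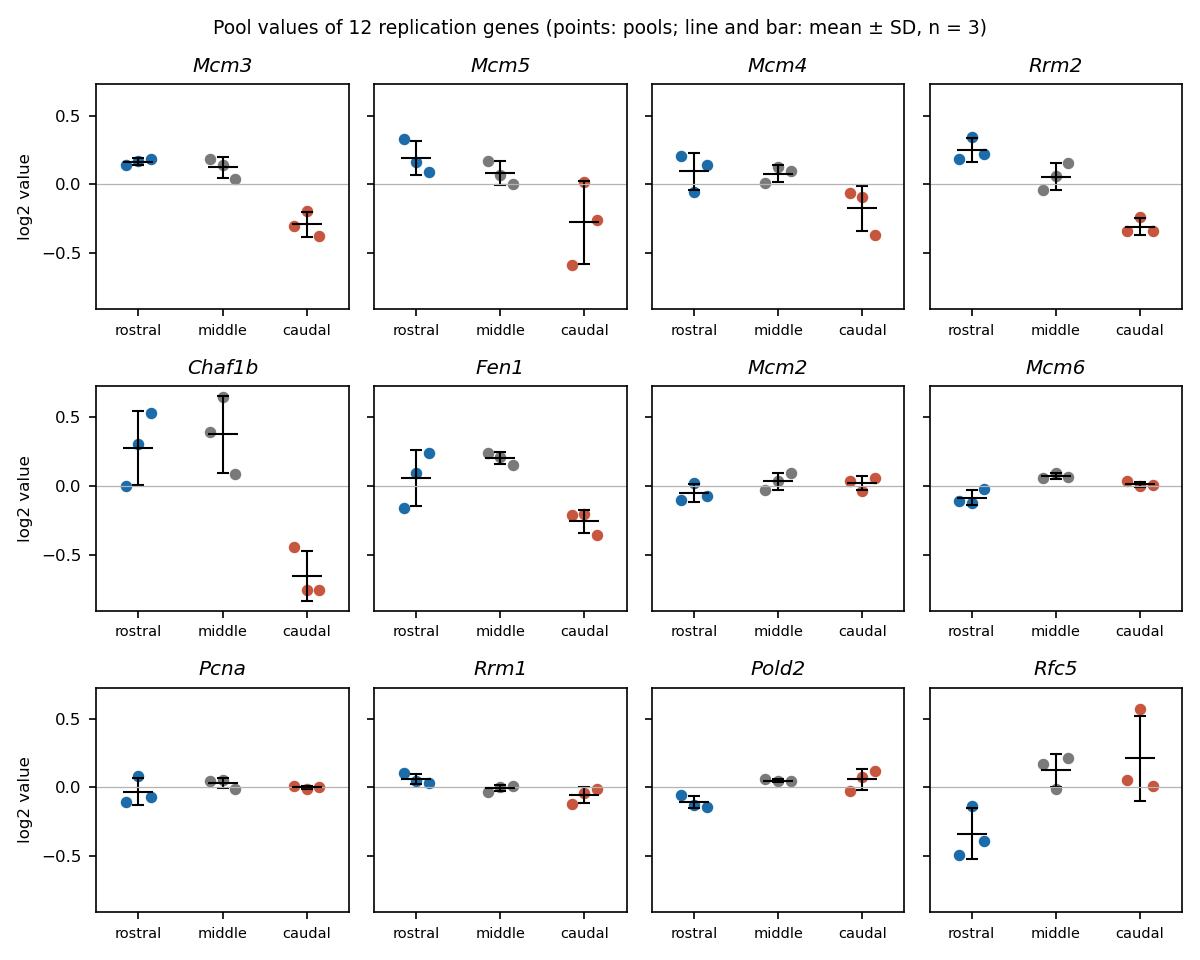
Log2 values of 12 replication genes by region, relative to the mean of the 9 pools; each point is a pool, and the line and bar give the mean ± SD of 3 pools. The caudal pools of Mcm3, Rrm2, Fen1 and Chaf1b lie below all middle and rostral pools, while those of Mcm2 and Pcna overlap the other regions.

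Deoxynucleotides come from ribonucleotide reductase, a complex of a large subunit (Rrm1) and a small, cell-cycle-regulated subunit (Rrm2), and from thymidylate synthase (Tyms). Rrm2 had 0.18, 0.35 and 0.22 in rostral replicates 1, 2 and 3, -0.044, 0.060 and 0.15 in the middle replicates and -0.34, -0.24 and -0.34 in the caudal replicates. The pools of the 3 regions did not overlap, in the order rostral, middle, caudal. Rostral pools were 1.47-fold above caudal pools (0.555 ± 0.073, limma unadjusted p = 0.000107), with 0.45 to 0.74 on the 6 direct arrays, all above 0.

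Rrm1 had 0.10, 0.044 and 0.033 in rostral replicates 1, 2 and 3, -0.030, 0.003 and 0.013 in the middle replicates and -0.12, -0.037 and -0.011 in the caudal replicates. The rostral pools were above the other 6, with a smaller difference between the ends (0.12 ± 0.050, limma unadjusted p = 0.0530). Tyms had -0.13, 0.12 and -0.13 in rostral replicates 1, 2 and 3, 0.175, 0.048 and -0.004 in the middle replicates and -0.047, -0.11 and 0.080 in the caudal replicates, and its regions overlapped (-0.023 ± 0.094, limma unadjusted p = 0.812).

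Behind the fork, chromatin assembly factor 1 deposits new histones. Its middle subunit Chaf1b had -0.001, 0.30 and 0.53 in rostral replicates 1, 2 and 3, 0.39, 0.64 and 0.088 in the middle replicates and -0.44, -0.75 and -0.76 in the caudal replicates. All caudal pools were below the other 6, which spread widely. Chaf1b had the largest difference between the ends among the 40 genes (0.93 ± 0.19, 1.91-fold, limma unadjusted p = 0.00142, limma adjusted p = 0.186) and 0.375 to 1.77 on the 6 direct arrays. The large subunit Chaf1a had 0.125 ± 0.069 with overlapping pools (limma unadjusted p = 0.113). Hells, a chromatin remodeller needed for DNA methylation, had 0.094 ± 0.068 (limma unadjusted p = 0.210), and its second probe 0.075 ± 0.20.

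On the lagging strand, Fen1 removes the flaps of Okazaki fragments and Lig1 seals the nicks. Fen1 had -0.16, 0.093 and 0.24 in rostral replicates 1, 2 and 3, 0.24, 0.21 and 0.15 in the middle replicates and -0.21, -0.20 and -0.36 in the caudal replicates. The middle and caudal pools did not overlap, and rostral replicate 1 stood near the caudal pools. Between the ends the difference was 0.315 ± 0.10 (1.24-fold, limma unadjusted p = 0.0181), and it was higher in rostral on 5 of the 6 direct arrays. That p was 0.0526 without rostral replicate 2 and 0.0976 without rostral replicate 3.

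Lig1 had 0.062, 0.12 and 0.021 in rostral replicates 1, 2 and 3, 0.003, -0.004 and -0.019 in the middle replicates and -0.085, -0.023 and -0.078 in the caudal replicates. The 3 regions did not overlap, in the order rostral, middle, caudal, over a narrow range. The difference between the ends was 0.13 ± 0.048 (limma unadjusted p = 0.0280), with a p above 0.05 with rostral replicate 1 or 2, middle replicate 1, 2 or 3 or caudal replicate 1, 2 or 3 left out (0.0501 to 0.104).

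Primase and the polymerases gave small differences. Prim1, the catalytic primase subunit, had 0.11, 0.089 and 0.039 in rostral replicates 1, 2 and 3, -0.071, 0.057 and 0.068 in the middle replicates and -0.135, -0.10 and -0.053 in the caudal replicates. The rostral pools were above the caudal pools (0.18 ± 0.057, limma unadjusted p = 0.0163), with 6 of 6 direct arrays above 0. Prim2, its regulatory partner, had 0.058, 0.11 and 0.052 in rostral replicates 1, 2 and 3, -0.027, -0.042 and 0.066 in the middle replicates and -0.15, -0.093 and 0.018 in the caudal replicates. The ends again did not overlap (0.15 ± 0.061, limma unadjusted p = 0.0435). The p of Prim1 was above 0.05 with rostral replicate 1, middle replicate 2 or caudal replicate 2 left out (0.0501 to 0.0704), and that of Prim2 with rostral replicate 1, 2 or 3, middle replicate 1 or 2 or caudal replicate 1 or 2 left out (0.0528 to 0.157).

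Pole, the catalytic subunit of the leading-strand polymerase, had 0.049, 0.067 and 0.048 in rostral replicates 1, 2 and 3, -0.016, -0.016 and 0.027 in the middle replicates and -0.021, -0.065 and -0.073 in the caudal replicates. Its regions did not overlap, although the difference was the smallest of those with an unadjusted p under 0.05 (0.11 ± 0.043, limma unadjusted p = 0.0396). Pold2, an accessory subunit of the lagging-strand polymerase, had -0.058, -0.13 and -0.14 in rostral replicates 1, 2 and 3, 0.061, 0.046 and 0.044 in the middle replicates and -0.026, 0.079 and 0.12 in the caudal replicates. Its rostral pools were the lowest of the 9, so that it went the other way (-0.17 ± 0.055, limma unadjusted p = 0.0184), with 0 of 6 direct arrays above 0. The catalytic subunit of the same polymerase, Pold1, had 0.096 ± 0.056, and the polymerase alpha subunits Pola1 and Pola2 had 0.068 ± 0.10 and -0.051 ± 0.088, none of them with an unadjusted p under 0.05. The p of Pole was above 0.05 with rostral replicate 1, 2 or 3, middle replicate 1, 2 or 3 or caudal replicate 2 or 3 left out (0.0880 to 0.162), and that of Pold2 with rostral replicate 2 or 3 or caudal replicate 2 or 3 left out (0.0673 to 0.125).

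The sliding clamp Pcna had -0.10, 0.084 and -0.072 in rostral replicates 1, 2 and 3, 0.043, 0.055 and -0.010 in the middle replicates and 0.008, -0.009 and 0.004 in the caudal replicates. The regions overlapped and the difference between the ends was -0.031 ± 0.060 (limma unadjusted p = 0.618). Its 5 loader subunits, which together form replication factor C, did not share a direction. Rfc4 had 0.20, 0.19 and 0.037 in rostral replicates 1, 2 and 3, -0.11, 0.004 and 0.054 in the middle replicates and -0.28, -0.059 and -0.046 in the caudal replicates. Rostral pools were above caudal pools (0.27 ± 0.087, limma unadjusted p = 0.0159), with rostral replicate 3 and caudal replicate 3 nearest to each other. That p was above 0.05 with caudal replicate 1 left out (0.0864).

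Rfc5 had -0.49, -0.13 and -0.39 in rostral replicates 1, 2 and 3, 0.17, -0.011 and 0.21 in the middle replicates and 0.055, 0.57 and 0.012 in the caudal replicates. The rostral pools were below the other 6, and caudal replicate 2 stood far above the rest. The difference was -0.55 ± 0.17 (limma unadjusted p = 0.0128), and the p was 0.0751 without rostral replicate 1. Without caudal replicate 2 the difference was -0.29 (limma unadjusted p = 0.0497). Direct arrays of rostral against caudal pools ran from -1.83 to -0.23, with a mean of -0.784. Those of rostral against middle pools had a mean of -0.222. Those of middle against caudal pools had 0.149, above 0 on 5 of 6, where the pool fit gave -0.088. The residual SD of Rfc5 between arrays (0.51) was far above the median of the 40 genes. Rfc3 had 0.18 ± 0.078 (limma unadjusted p = 0.0520) and Rfc1 -0.032 ± 0.047. Rfc2 had -0.28 ± 0.43, with pool values from -0.58 to 1.06 within the caudal region alone, so that no difference was detectable at this precision.

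Genes that prepare and fire origins included 1 with an unadjusted p under 0.05. Gins1, a subunit of the GINS complex, had 0.18, 0.12 and -0.011 in rostral replicates 1, 2 and 3, -0.057, 0.066 and 0.051 in the middle replicates and -0.23, -0.020 and -0.098 in the caudal replicates. Rostral pools were above caudal pools (0.21 ± 0.078, limma unadjusted p = 0.0301), although rostral replicate 3 and caudal replicate 2 were close, and the p was above 0.05 with rostral replicate 1 or 2 or caudal replicate 1 or 3 left out (0.0512 to 0.108). Gins2, of the same complex, had -0.096 ± 0.096, and its second probe 0.17 ± 0.13, on the other side of 0. Cdc45 had 0.14 ± 0.062 (limma unadjusted p = 0.0590), with rostral above caudal pools. Cdc6 had 0.089 ± 0.054 and Cdt1 0.18 ± 0.22, the latter with pool values that spread more within regions than between them.

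The 6 origin recognition genes, Orc1 to Orc6, lay between -0.024 (Orc2) and 0.084 (Orc6), with 0 of 6 at an unadjusted p under 0.05 and overlapping pools in each. The single-strand binding genes Rpa1, Rpa2 and Rpa3 had -0.015 ± 0.072, 0.17 ± 0.086 and 0.11 ± 0.10, also with overlapping pools and none at an unadjusted p under 0.05. A miss of the threshold at 3 pools per region does not show that the ends were alike. The standard errors of the 6 origin recognition genes were between 0.053 and 0.069.

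**Figure D3:**
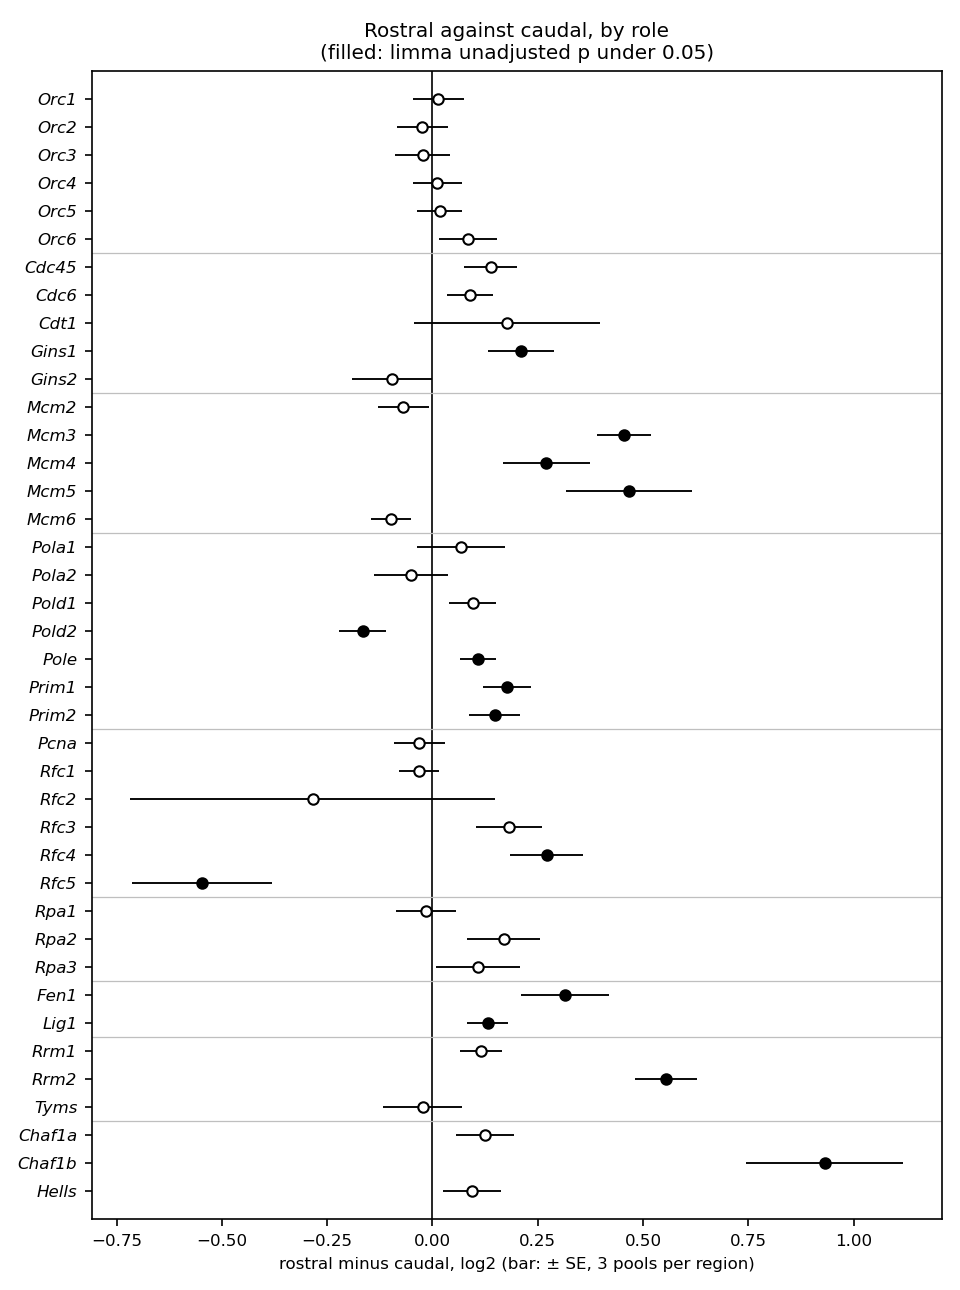
Rostral minus caudal difference of each of the 40 genes on the log2 scale (point) with its standard error (bar, 3 pools per region), grouped by role; filled points have a limma unadjusted p under 0.05. The largest positive differences are those of Chaf1b, Rrm2, Mcm5 and Mcm3, the lowest is that of Rfc5, and Rfc2 has the widest error.

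Pools were also counted, without a test. In 15 genes all rostral pools were above all caudal pools (6.22% of all features) and in 3, Mcm6, Pold2 and Rfc5, they were below (5.89%). On the 6 arrays that compared the ends directly, 13 genes were higher in rostral on all 6 (7.02% of 14654 features with values there) and 2 were lower on all 6, Pold2 and Rfc5 (6.03%). These direct arrays enter the pool values too and are no separate evidence.

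The middle region was compared with each end to ask where along the axis the values step. Between middle and caudal pools Chaf1b (1.03 ± 0.19, 2.04-fold, limma unadjusted p = 0.000801), Fen1 (0.46 ± 0.10, limma unadjusted p = 0.00285), Mcm3 (0.41 ± 0.065, limma unadjusted p = 0.000330) and Rrm2 (0.36 ± 0.073, limma unadjusted p = 0.00151) had higher middle values. Mcm5 (0.355 ± 0.15, limma unadjusted p = 0.0482) and Mcm4 (0.25 ± 0.10, limma unadjusted p = 0.0437) did too, but kept an unadjusted p under 0.05 in 8 and 12 of the 20 alternatives. Chaf1b kept it in all 20, and Fen1, Mcm3 and Rrm2 in 19 each. Mcm5 lost it with rostral replicate 2 or 3, middle replicate 1 or 2 or caudal replicate 1 or 3 left out (0.0752 to 0.145), and its difference was 0.20 without caudal replicate 1. Mcm4 lost it with rostral replicate 3, any middle replicate or caudal replicate 2 or 3 left out (0.0700 to 0.139). These 6 genes were the ones higher in middle pools at an unadjusted p under 0.05 (3.08% of all features were), 0 were lower (1.78%; in both directions 4.86%), and 0 of 40 passed after adjustment (0.00% of features, lowest limma adjusted p = 0.394). In 10 genes all middle pools were above all caudal pools (6.18%) and in 0 were they below (4.37%).

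Of the 40 genes 31 were above 0 in middle against caudal (50.7% of features), with a median of 0.052 against 0.002, but without centring of the arrays 7 were above 0 and the median was -0.12, against -0.17 for all features. Relative to all features the median was 0.050 in both cases. Without centring 1 gene was higher and 1 was lower at an unadjusted p under 0.05, against 0.286% and 11.8% of all features.

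Between rostral and middle pools the genes were divided. Rrm2 alone had higher rostral values at an unadjusted p under 0.05 (0.19 ± 0.073, limma unadjusted p = 0.0327; 2.16% of all features were higher). Mcm6 (above), Pold2 (-0.16 ± 0.055, limma unadjusted p = 0.0224) and Rfc5 (-0.46 ± 0.17, limma unadjusted p = 0.0274) had lower rostral values (3.09%; in both directions 5.25%). After adjustment 0 of 40 passed (0.00% of features, lowest limma adjusted p = 0.781). In 5 genes all rostral pools were above all middle pools (5.17%), and in 4 they were below (7.66%). Of the genes 24 were above 0 (50.7% of features), with a median of 0.026 against 0.002.

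The split was 4 higher and 1 lower with a covariate for the Gapdh control spots, and 2 and 1 from the direct arrays alone. These counts have no share of all features beside them and are not read as a result. Without centring it was 4 and 0, where 4.21% of all features were higher and 0.335% lower and their median was 0.105. The median of the replication genes relative to all features was then 0.022, against 0.024 with centring. Rrm2 lost its unadjusted p under 0.05 with rostral replicate 2 or 3, middle replicate 1 or 2 or any caudal replicate left out (0.0523 to 0.183). Without caudal replicate 2 the difference of Rfc5 was -0.30. The 3 lower genes became 1 without middle replicate 1 or 2 or caudal replicate 3, and 0 without middle replicate 3.

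The 3 comparisons share pools, so their values stand side by side and are not independent. Fen1 had -0.14 from rostral to middle and 0.46 from middle to caudal. For Chaf1b the corresponding values were -0.095 and 1.03, and for Mcm3 0.043 and 0.41. In these 3 genes the step between middle and caudal pools was thus the larger in size. Rrm2 had 0.19 and 0.36, a step at both places. Rfc5 had -0.46 and -0.088, and Pold2 -0.16 and -0.008, with the larger step between rostral and middle pools in this fit. Over the 20 alternatives Pold2 ran from -0.183 to -0.057 at the first place and from -0.182 to 0.034 at the second. The ranges were -0.588 to -0.222 and -0.262 to 0.150 for Rfc5, and 0.131 to 0.294 and 0.188 to 0.422 for Rrm2. For Rrm2, Rfc5 and Pold2 the larger step kept its place whichever pool was left out. Over all 20 alternatives their 2 ranges overlapped in size, and the order within each of the other alternatives is not given here. The place of the larger step is therefore not settled.

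Against the mean of the ends, 4 genes had higher middle values at an unadjusted p under 0.05 (2.40% of all features): Chaf1b (0.56 ± 0.16), Fen1 (0.30 ± 0.090), Mcm3 (0.18 ± 0.056) and Mcm6 (0.11 ± 0.041). None had lower values at that threshold (0 of 40, against 1.66% of features; 4.06% in both directions), and 0 passed after adjustment in limma (0.00% of features). Region means went down from rostral through middle to caudal in 19 of the 40 genes (19.1% of features) and up in 4 (17.7%). The middle mean was the highest in 12 (31.6%) and the lowest in 5 (31.6%).

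An F test over the 3 regions took all pools together. At an unadjusted p under 0.05, 10 of the 40 genes were found (6.71% of features), namely Mcm3, Mcm5, Mcm6, Rrm2, Prim1, Pold2, Rfc4, Rfc5, Fen1 and Chaf1b, and 0 passed after adjustment (0.0108% of features, lowest limma adjusted p = 0.170).

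The replication genes differed in how far they followed each other over the pools. Over the 780 pairs of the 40 genes the median Pearson correlation of the 9 pool values was 0.10, and 452 pairs (57.9%) were above 0. Each gene was also set against the median of the other genes. By this measure the median correlation was 0.38, with 31 of 40 above 0, the highest for Prim1 (0.936), Prim2 (0.877) and Rrm2 (0.822) and the lowest for Rfc5 (-0.53), Pold2 (-0.38), Gins2 (-0.35) and Mcm6 (-0.33). These are descriptions over 9 pools that share arrays, and pairs of all features were not set beside them.

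Other genes of the pathway were taken from separate lists. Of 44 further replication genes 35 were tested, and 24 were above 0 in rostral against caudal (68.6%, against 50.4% of all features), with a median of 0.045. At an unadjusted p under 0.05, 25.7% of the 35 differed in either direction, against 7.90% of all features (4.17% higher and 3.74% lower). Higher rostral values at an unadjusted p under 0.05 were found for 7 of the 35: the fork protection genes Timeless (0.86 ± 0.35) and Tipin (0.20 ± 0.063), the histone chaperone gene Asf1b (0.32 ± 0.10), the polymerase delta subunit Pold3 (0.28 ± 0.079), Mcm10 (0.28 ± 0.075), which helps to activate the helicase, the PCNA-associated factor Pclaf (0.225 ± 0.089), and geminin, Gmnn (0.22 ± 0.069), the inhibitor of Cdt1. Lower rostral values were found for 2, the polymerase epsilon subunit Pole4 (-0.35 ± 0.088) and the histone mRNA binding protein Slbp (-0.155 ± 0.048).

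Of the 14 further genes of nucleotide supply tested, 11 were above 0 (78.6%, against 50.4% of all features), with a median of 0.105. At an unadjusted p under 0.05, 21.4% of them differed in either direction, against 7.90% of all features (4.17% higher and 3.74% lower). The pyrimidine synthesis gene Umps (0.18 ± 0.059), thymidine kinase, Tk1 (0.17 ± 0.062), and the purine synthesis gene Paics (0.16 ± 0.062) had higher rostral values at an unadjusted p under 0.05, and 0 had lower values.

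Of 27 regulators of the G1 to S transition tested, 17 were above 0 (63.0%, against 50.4% of all features), with a median of 0.028. At an unadjusted p under 0.05, 18.5% of them differed in either direction, against 7.90% of all features (4.17% higher and 3.74% lower). E2f1, an activator of replication genes (0.30 ± 0.072), the phosphatase Cdc25a (0.28 ± 0.11) and cyclin A2, Ccna2 (0.17 ± 0.071), had higher rostral values at an unadjusted p under 0.05, and Ccnd2, a D-type cyclin (-0.22 ± 0.049), and the E2F partner Tfdp2 (-0.18 ± 0.060) lower ones.

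Genes of mitosis and G2/M, which mark dividing cells past S phase, were mostly above 0 too. Of 39 tested, 33 were above 0 (84.6%, against 50.4% of all features), with a median of 0.11. In either direction 30.8% of them had an unadjusted p under 0.05, against 7.90% of all features (4.17% higher and 3.74% lower). At an unadjusted p under 0.05, 11 were higher in rostral pools, among them the chromatin protein gene Hmgb2 (0.315 ± 0.062), the spindle checkpoint genes Bub3 (0.37 ± 0.088) and Bub1b (0.21 ± 0.044), and Aurora kinase A, Aurka (0.25 ± 0.085). The ubiquitin-conjugating enzyme Ube2c was lower (-0.19 ± 0.071). In these 4 lists 0 genes passed after adjustment in limma.

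Markers of the cells in the tissue were counted beside them. Over all features 4.17% were higher and 3.74% lower in rostral pools at an unadjusted p under 0.05, and 0.0648% passed after adjustment. Of 16 radial glia markers 3 had higher and 3 lower rostral values at an unadjusted p under 0.05, with a median of 0.003, and 2 passed after adjustment, the filament gene Vim with lower and the growth factor gene Ptn with higher rostral values. Of 13 markers of intermediate progenitors 2 were higher and 3 lower (median -0.075), and of 24 neuronal markers 3 were higher and 5 lower (median -0.048). The counts were 0 and 0 for 13 endothelial and pericyte, 10 microglial and 11 choroid plexus and hem markers, 0 and 2 for 8 red blood cell markers, and 0 and 1 for 13 markers of the ventral telencephalon. Counts this small in such short lists are not read as a result. The part of any of these cell types in the values of the replication genes was not tested.

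**Figure D4:**
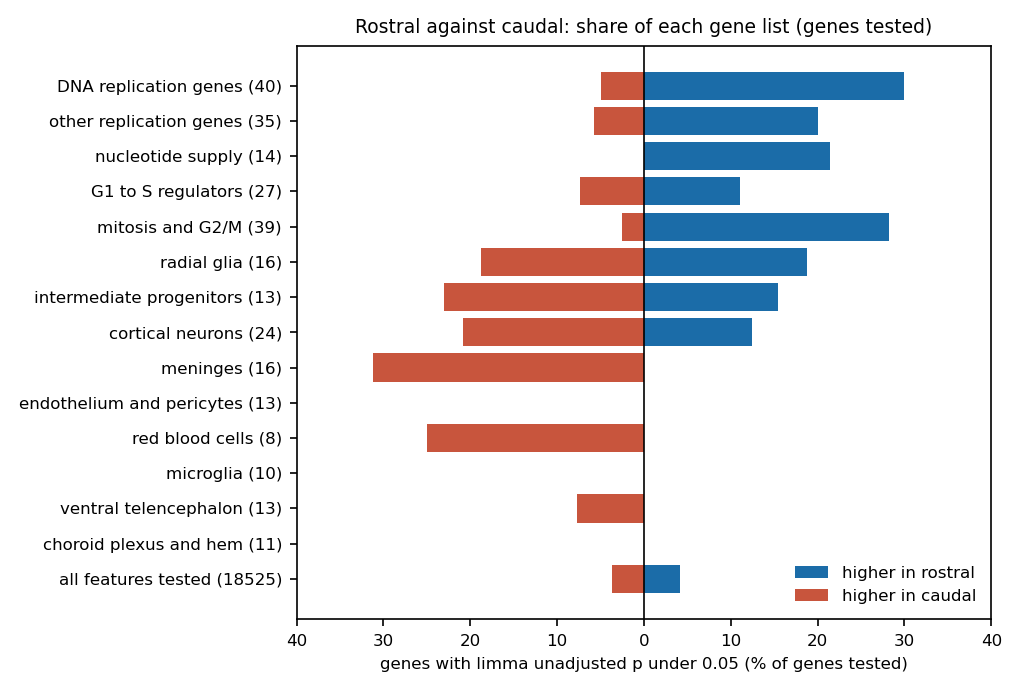
Share of the tested genes of each list with a limma unadjusted p under 0.05 in rostral against caudal, to the right where rostral was higher and to the left where caudal was higher; numbers in brackets are genes tested. On the rostral side stand 12 of 40 replication genes, beside 11 of 39 mitosis and G2/M genes and 4.17% of all features.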

How the data were processed

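The authors deposited log2 ratios for 21998 probes on each array. Their scanner, background correction, normalization and filters, and which dye was the numerator, were not given in the sources used here. The base 2 follows from the cap on every array, 16.61, which is log2 of 100000. Such capped ratios (1477 in all) were set to missing, and each array was centred on its median. Control spots for Gapdh (232) were left out. Genes were named through the platform annotation (16632 probes with 1 symbol, 139 with several, 4995 unnamed here). Features needed values on 12 arrays and on 2 arrays of each pool. Pool values were estimated by least squares over the 18 arrays, with a term for the dye, and region was the factor of a limma fit to them (version 3.58.1 in R 4.3.3, lmFit with eBayes, 6 residual and 1.26 prior degrees of freedom). Tests were two-sided, and the Benjamini-Hochberg adjustment ran over all 18525 features. Because pools shared arrays, the pool fit puts the array noise of a difference between regions at 1.67 times its variance, which makes the test cautious for features with little spread between pools. The fit was tested on simulated data. Their spread between pools was a fixed fraction, chosen by hand, of each feature's residual SD between pools, with normal noise between arrays. The shares that follow depend on this setting and are not the power of the real data. A true rostral against caudal difference of 0.5 reached a limma adjusted p under 0.05 in 19.0% of changed features, and 1 of 1 log2 unit in 48.0%. At an unadjusted p under 0.05 the shares were 63.0% and 82.0%, against 2.83% of unchanged features. Alternatives were centring, scaling, capped ratios, the filter, the dye term, a replicate block, the Gapdh spots as a covariate, direct arrays alone, all probes of a gene, each pool left out, and arrays as the unit of the fit, the last added after seeing the data. Pool values are given for every gene with an unadjusted p under 0.05 in rostral against caudal or in the F test, and for the Mcm genes, Pcna, Rrm1, Rrm2 and Tyms; other genes of the pathway come from lists. The replication genes and the lists were chosen with earlier results of these data known.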

Additional observations from a re-analysis of the deposited data

Results flagged for a closer look

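In 2 of 60 sets of 6 array values examined, 1 array stood far from the other 5. The gap was judged by Dixon's critical value, which by its construction chance passes in about 1 of 20 sets of independent values, and these arrays share pools. Prim1 had 0.340 on the array of rostral replicate 2 against middle replicate 1, while the other 5 arrays of rostral against middle gave 0.007 to 0.10. The median of the 40 replication genes was 0.163 on the array of middle replicate 3 against caudal replicate 1, while the other 5 arrays of middle against caudal gave 0.047 to 0.089.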

How the results depend on the processing

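The number of all features that passed in rostral against caudal (12) was 0 without centring, with the replicate block, with the Gapdh covariate or from direct arrays alone, 7 with no minimum number of arrays, 46 among features on all 18 arrays, 1325 with arrays as the unit, and 0 to 4 with a pool left out. With arrays as the unit, 703 passed in rostral against middle and 501 in middle against caudal, where 0 did in the pool fit. Of the replication genes, 12 had higher rostral than caudal values at an unadjusted p under 0.05. This count was 5 without centring, 7 with the block, 20 with arrays as the unit, and 6 to 10 with a pool left out. Shares of all features at an unadjusted p under 0.05 are given for the main fit and the fit without centring alone. The 2 lower genes were 1 with the block or the Gapdh covariate and 1 to 2 with a pool left out. In rostral against middle the 1 higher gene became 4 without centring, with the Gapdh covariate or with arrays as the unit, 2 from direct arrays, and 0 to 1 with a pool left out. The 3 lower genes became 0 without centring, 1 with the Gapdh covariate or from direct arrays, 5 with arrays as the unit, and 0 to 3 with a pool left out. In middle against caudal the 6 higher genes became 1 without centring and 10 with arrays as the unit, and the 0 lower genes became 1 without centring. Without centring the median of the replication genes was 0.029 between the ends, 0.13 for rostral against middle pools and -0.12 for middle against caudal pools. The medians of all features moved alike, to -0.069, 0.105 and -0.17, so that the replication genes relative to them stood at 0.097, 0.022 and 0.050, against 0.093, 0.024 and 0.050 with centring. The labels do not say whether pools of the same number share embryos. Their 9 correlations across features were between -0.43 and -0.057, and 0 of 9 pools correlated best with a pool of its own number. Pools of the same number met on 0 arrays, whereas pools that met share array noise. These correlations therefore cannot show whether pools of the same number belong together. The number of arrays limits the precision, and a log2 ratio carries no signal over background.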
